A study of Mus musculus with 16 samples.

Results

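Fatty acids are the main fuel of the adult heart, and the genes described here encode the route from the blood vessel to the electron transport chain. The 32 genes were taken by name, by their place in fatty acid uptake, activation, the carnitine shuttle, mitochondrial beta-oxidation and lipid storage, from a count table of 55573 genes, and all 32 were among the 16857 genes with enough counts to be tested. The table came from RNA-Seq of the heart apex of 16 mice, 4 in each of 4 groups. All mice were wild type and had been injected under the skin at postnatal day 1 with adeno-associated virus serotype 9 (AAV9), whose insert was driven by the chicken cardiac troponin T promoter, active in cardiomyocytes. The insert was green fluorescent protein (AAV9-GFP, the control vector) or full-length Cardinal, a long noncoding RNA whose mouse gene is Gm12295 (AAV9-Cardinal). Mice of 25 to 30 g then underwent transverse aortic constriction (TAC), a ligature around the aorta that imposes pressure overload on the left ventricle, or a sham operation without ligation, and hearts were taken 4 weeks later. The study used male mice. Groups are named by vector and operation, and the age of the mice at collection was not stated in the sources used here. Only injected mice were compared, so every group carried the AAV9 capsid and the cardiomyocyte promoter.

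In the heart, lipoprotein lipase releases fatty acids from circulating triglyceride, CD36 and fatty acid transport proteins carry them into the cardiomyocyte, and acyl-CoA synthetases trap them as acyl-CoA. The carnitine shuttle moves long-chain acyl-CoA across the inner mitochondrial membrane, with its first step inhibited by malonyl-CoA, and repeated cycles of dehydrogenation, hydration, a second dehydrogenation and thiolysis then shorten the chain. Electrons from the acyl-CoA dehydrogenases leave through the electron transfer flavoprotein (ETF) and its dehydrogenase, and the nuclear receptors PPARα and ERRα are known activators of many of these genes in heart muscle.

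Sequencing gave 16441997 to 21904589 counts per mouse, of which genes encoded by the mitochondrial genome took 32.8% to 34.0% in AAV9-GFP sham, 30.3% to 30.97% in AAV9-GFP TAC, 32.2% to 33.7% in AAV9-Cardinal sham and 30.97% to 31.9% in AAV9-Cardinal TAC. This share was thus lower after TAC with either vector, and with these genes left out 25 and 13 of the 32 genes were again called after TAC in AAV9-GFP and AAV9-Cardinal hearts. Values are given as CPM, the count of a gene scaled by TMM to a common library total, and mice are listed in the order of their labels, namely 1 to 4 in both sham groups, 1, 3, 4 and 7 in AAV9-GFP TAC and 1, 4, 5 and 6 in AAV9-Cardinal TAC. Cardinal (Gm12295) stood at 3.42 to 5.93 CPM in AAV9-GFP sham, 3.59 to 7.24 CPM in AAV9-GFP TAC and 26.2 to 40.03 CPM in AAV9-Cardinal sham. In AAV9-Cardinal TAC it stood at 93.9 CPM in replicate 1 and at 18.3 to 20.6 CPM in the other 3 mice, so that replicate 1 stood apart from its group. Markers of atrial cardiomyocytes summed to at most 2.53 CPM. Each comparison was a contrast in one edgeR quasi-likelihood model of the 16 mice, p was adjusted by Benjamini-Hochberg over the 16857 genes, and a gene was called when its adjusted p was under 0.05. Nothing in the labels names litters or batches. The p-values rest on the spread between mice within groups, estimated jointly over the 4 groups.

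Before the values, 4 promoter sequences of enzymes of the oxidation cycle are shown. Of the genes from the acyl-CoA dehydrogenases to ETF, only Acadm, Acadvl and Echs1 held the nuclear receptor core motif AGGTCA in a window. Their windows are therefore not typical of these genes. Promoters are RefSeq windows on GRCm38.p6, from 250 bases before to 50 bases after a transcript start, and 26 of the 32 genes (all but Acaa2, Acot13, Cpt1b, Decr1, Fabp4 and Lpl) had at least one window, 30 windows in all. Hadha and Hadhb, the alpha and beta subunits of the trifunctional protein, lie head to head on chromosome 5, their RefSeq starts are 273 bases apart, and 228 bases of their windows are the same DNA. The Hadhb window (chr5:30155003-30155302, plus strand) therefore holds most of the Hadha window as well, and its capitals mark the GC box GGGCGG on either strand. In the windows of Acadm (chr3:153944594-153944893, minus strand), Acadvl (chr11:70015379-70015678, minus strand) and Echs1 (chr7:140116372-140116671, minus strand) the capitals mark the nuclear receptor core motif AGGTCA on either strand.
Hadhb: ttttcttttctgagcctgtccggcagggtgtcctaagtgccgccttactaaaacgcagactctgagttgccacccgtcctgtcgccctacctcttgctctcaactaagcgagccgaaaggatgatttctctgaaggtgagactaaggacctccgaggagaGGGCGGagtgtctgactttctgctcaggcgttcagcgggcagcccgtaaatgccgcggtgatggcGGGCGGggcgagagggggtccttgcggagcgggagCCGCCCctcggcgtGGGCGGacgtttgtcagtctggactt
Acadm: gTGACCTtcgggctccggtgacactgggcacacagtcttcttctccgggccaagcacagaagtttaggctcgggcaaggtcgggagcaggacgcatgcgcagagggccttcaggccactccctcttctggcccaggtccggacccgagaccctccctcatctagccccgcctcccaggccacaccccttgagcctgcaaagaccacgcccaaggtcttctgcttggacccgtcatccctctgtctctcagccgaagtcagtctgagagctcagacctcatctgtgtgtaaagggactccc
Acadvl: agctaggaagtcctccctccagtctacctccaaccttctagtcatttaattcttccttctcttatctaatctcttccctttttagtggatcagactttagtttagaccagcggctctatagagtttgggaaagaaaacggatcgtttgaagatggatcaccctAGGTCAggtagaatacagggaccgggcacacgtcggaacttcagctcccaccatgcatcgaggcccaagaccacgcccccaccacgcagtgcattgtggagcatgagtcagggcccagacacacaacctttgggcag
Echs1: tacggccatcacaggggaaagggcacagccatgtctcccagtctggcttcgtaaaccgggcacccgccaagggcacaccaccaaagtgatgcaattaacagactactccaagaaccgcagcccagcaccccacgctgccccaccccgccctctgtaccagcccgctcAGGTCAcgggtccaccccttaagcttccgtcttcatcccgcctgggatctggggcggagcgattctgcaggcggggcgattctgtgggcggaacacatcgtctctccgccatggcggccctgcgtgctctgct
The core motif AGGTCA occurred on one strand or the other in 9 of the 30 windows (30%), of Acacb, Acadm, Acadvl, Cd36, Cpt1a, Echs1, Plin5 and Ucp3, and in 16.3% of all 32851 promoters of the table. The GC box was in 20 of the 30 windows (66.7%) and in 35.7% of all promoters, and the CCAAT box, in the letters CCAAT, was in 15 windows (50%) and in 37.4% of all promoters. The extended motif TCAAGGTCA, which contains AGGTCA, was in none of the 30 windows and in 0.423% of all promoters, and the direct repeat of AGGTCA with 1 base between was in none of them and in 0.0396% of all. A match says only that these letters stand in the window, and the shares were not tested.

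Per kilobase of the principal transcript, which allows levels of different genes to be compared, the cytosolic carrier Fabp3 was the most abundant of the 32 transcripts in AAV9-GFP sham hearts, at 1978 CPM per kilobase. Lpl followed at 1226 CPM per kilobase, and next came Hadhb at 485, Acadm at 467 and Acadl at 423 CPM per kilobase. The muscle isoform of carnitine palmitoyltransferase 1, Cpt1b, was at 165 CPM per kilobase and the liver isoform Cpt1a at 7.7 CPM per kilobase. At the lower end stood Ucp3 at 8.64 and the cytosolic thioesterase Acot1 at 4.31 CPM per kilobase. Together the 32 genes summed to 17575 to 18491 CPM in AAV9-GFP sham and 17140 to 18519 CPM in AAV9-Cardinal sham mice. These TMM-scaled sums are not shares of the counts. The TMM factors were 0.940 to 0.977 in AAV9-GFP sham and 1.053 to 1.089 in AAV9-GFP TAC mice, which widens the gap between these groups. After TAC the sum was 13248 to 15216 CPM with AAV9-GFP and 14468 to 17238 CPM with AAV9-Cardinal. Replicate 1 was the lowest of the AAV9-Cardinal TAC mice, and the other 3 mice lay between 16658 and 17238 CPM. The AAV9-GFP TAC mice thus all lay below both sham groups.

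The first comparison asked what pressure overload did to the pathway with the control vector. In AAV9-GFP hearts 25 of the 32 genes were lower after TAC and none was higher, against 8.92% lower and 8.49% higher of all genes tested, and the median log2 fold change was -0.34 over the 32 genes and 0.0050 over all genes. Among the 32 genes, the fall covered every gene of the oxidation steps proper. The 4 steps from the acyl-CoA dehydrogenases to ETF hold 15 genes, a grouping made after the values were known, and 15 of these 15 were lower (median -0.49), as were 10 of the other 17 (median -0.29). For 23 of the 32 genes every AAV9-GFP TAC mouse lay below every AAV9-GFP sham mouse, which held for 10.2% of all genes tested. When each of the 16 mice was left out in turn, 20 of the 25 calls held in every fit, and the calls of Pnpla2, Acot2, Cd36, Eci2 and Acsl1 held in 13, 12, 11, 11 and 5 of the 16 fits. Because bulk RNA was measured, fewer cardiomyocytes and less RNA per cardiomyocyte cannot be told apart. The 12 cardiomyocyte markers summed to 55040 to 58303 CPM in AAV9-GFP sham and 44353 to 52284 CPM in AAV9-GFP TAC mice. Their median log2 fold change was -0.16. Of the 12, 6 were lower (Tnnt2, Tnni3, Ryr2, Myh6, Myl2 and Pln) and 2 higher (Tnnc1 and Mybpc3). Myh6 alone had a mean of 19200 CPM in sham and 15329 CPM in TAC mice. The 9 fibroblast markers went from a sum of 531 to 599 CPM to 946 to 1225 CPM. Of the 9, 6 were higher (Col1a1, Col1a2, Col3a1, Lum, Postn and Mfap5). Pdgfra, Dcn and Tcf21 were not called (adjusted p = 0.37, 0.74 and 0.14 with edgeR). The part of these shifts in cell markers in the fall of the fatty acid genes was not tested.

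**Figure D1:**
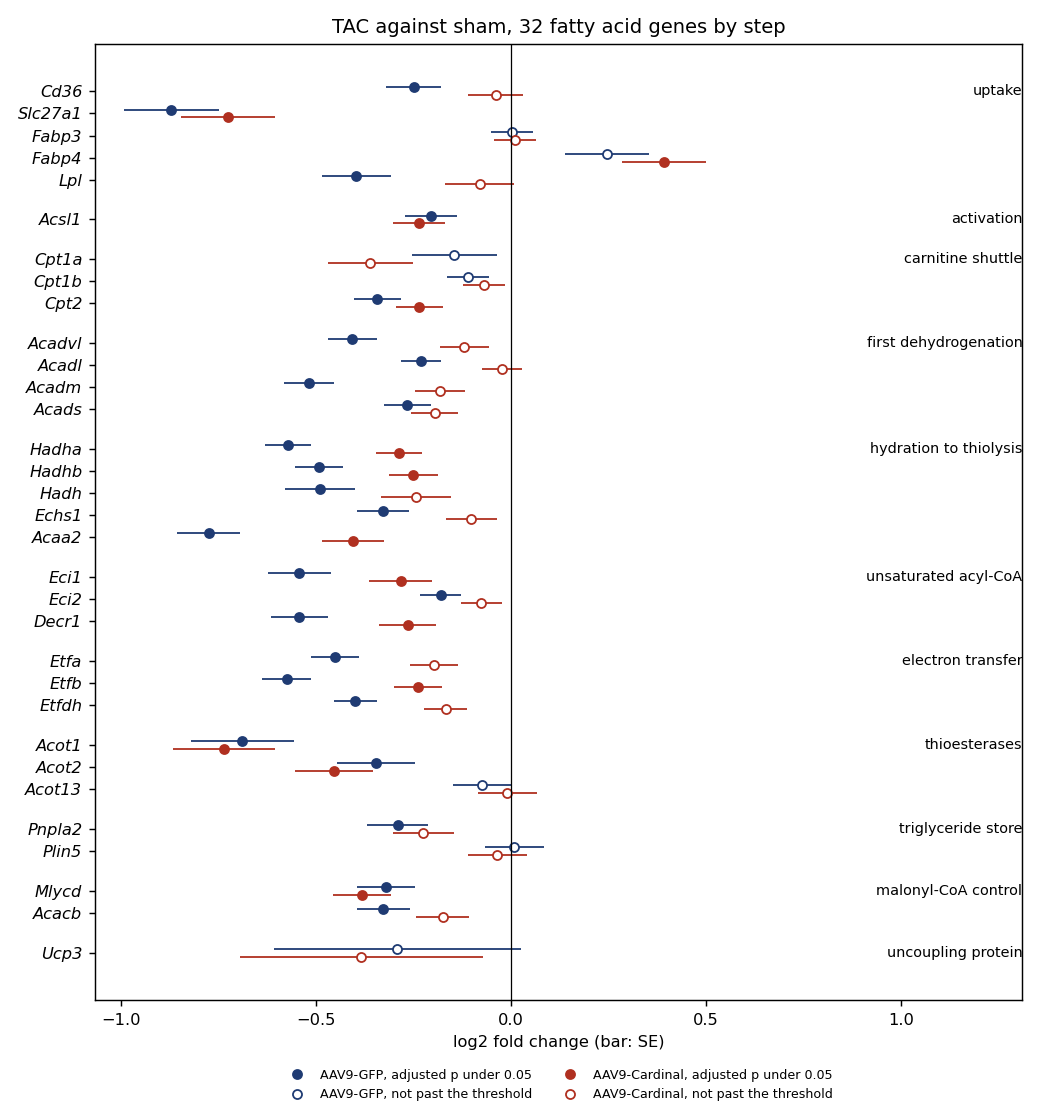
Log2 fold change after TAC (x axis, bars are SE) of the 32 genes (y axis, grouped by step) in AAV9-GFP hearts (blue) and AAV9-Cardinal hearts (red), filled where the adjusted p was under 0.05, n = 4 mice a group. Of the 15 genes from Acadvl to Etfdh, 15 are filled in blue and 6 in red, and Fabp3 and Plin5 lie within 0.036 of 0 in both.

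Among the uptake genes, Lpl, which encodes the lipase that frees fatty acids at the capillary wall, was at 5383, 4637, 5046 and 5118 CPM in AAV9-GFP sham mice and at 3747, 3198, 4365 and 4021 CPM in AAV9-GFP TAC mice. The groups did not overlap (log2 fold change -0.40, SE 0.089, adjusted p = 0.0062). Slc27a1, which encodes fatty acid transport protein 1, had the steepest fall of the 32 genes, from 114, 94.2, 105 and 86.1 CPM in sham mice to 69.2, 42.9, 52.5 and 53.5 CPM in TAC mice, again without overlap (log2 fold change -0.87, SE 0.12, adjusted p = 0.00022). The scavenger receptor gene Cd36 fell less, from 1306, 1160.2, 1247 and 1197 CPM to 1004, 1036, 1009 and 1082 CPM, without overlap (log2 fold change -0.25, SE 0.07, adjusted p = 0.023). The cytosolic fatty acid-binding proteins did not follow. Fabp3 was at 1650.2, 1611, 1673 and 1578 CPM in sham and 1616, 1699, 1690.1 and 1521 CPM in TAC mice, with groups that overlapped fully (log2 fold change 0.0032, SE 0.054, adjusted p = 0.98), and Fabp4, the isoform of capillary endothelium and adipocytes, had a log2 fold change of 0.25 (SE 0.11, adjusted p = 0.13) with the edgeR test, which passed the threshold without AAV9-GFP TAC replicate 1 (log2 fold change 0.34, adjusted p = 0.027). The 8 endothelial markers had a median log2 fold change of 0.23 in the same comparison. Of these, 3 were higher (Cdh5, Egfl7 and Cldn5, named after their values were seen) and none was lower. Over all genes tested 8.49% were higher and 8.92% lower. In AAV9-Cardinal hearts the median of these markers was 0.19 with none called, and their part in the level of Fabp4 was not tested. The 7 white adipocyte markers summed to 0 to 2.08 CPM over the 16 mice. Of the 50-base stretches of Fabp3, 29.2% also occur in the pseudogene Fabp3-ps1, so its reads may be shared.

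At activation and the carnitine shuttle 2 of 4 genes were called lower and none higher, against 8.92% lower and 8.49% higher of all genes tested. Acsl1, the main long-chain acyl-CoA synthetase of the heart, was at 766, 694, 649 and 674 CPM in sham and 670.2, 579, 601 and 562 CPM in TAC mice, and 1 TAC mouse lay above the lowest sham mouse (log2 fold change -0.21, SE 0.067, adjusted p = 0.0472). Cpt1b, the outer-membrane enzyme that commits acyl groups to oxidation, was at 511, 456, 483 and 459 CPM against 479, 419, 429 and 442 CPM, with overlapping groups (log2 fold change -0.11, SE 0.054, adjusted p = 0.19). Of the 50-base stretches of Cpt1b 78.6% also belong to the read-through transcript Gm44502, so the value depends on how shared reads were counted. Cpt1a had a log2 fold change of -0.14 (SE 0.11, adjusted p = 0.41). The inner-membrane partner Cpt2 was called, falling from 151, 154, 139 and 145 CPM to 127, 106, 120.3 and 111 CPM without overlap (log2 fold change -0.34, SE 0.06, adjusted p = 0.0013).

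All 4 acyl-CoA dehydrogenases of the first oxidation step were lower, against 8.92% of all genes tested. Acadm, the medium-chain enzyme, was at 952, 962, 989.6 and 921 CPM in sham mice and at 665, 609, 730.4 and 668 CPM in TAC mice, so that the highest TAC mouse stayed well under the lowest sham mouse (log2 fold change -0.52, SE 0.064, adjusted p = 9.1e-05). Acadvl, the very-long-chain enzyme, went from 608, 624, 647 and 589.7 CPM to 469, 418, 502 and 473 CPM, also without overlap (log2 fold change -0.41, SE 0.063, adjusted p = 0.00049). Its exons share 1151 bases with Dvl2 on the other strand. The long-chain enzyme Acadl and the short-chain enzyme Acads had log2 fold changes of -0.23 (SE 0.051, adjusted p = 0.0059) and -0.27 (SE 0.06, adjusted p = 0.0069), and neither gene's groups overlapped.

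The trifunctional protein, an enzyme of the inner membrane that carries out the last 3 steps on long chains, fell in both subunits. Hadha, the alpha subunit, was at 1308, 1393, 1381 and 1306 CPM in sham and 923, 859, 938 and 908 CPM in TAC mice (log2 fold change -0.57, SE 0.059, adjusted p = 2.7e-05). Hadhb, the thiolase subunit read from the strand opposite to Hadha, was at 964, 1007, 1057 and 944 CPM and 689.5, 684, 741 and 709 CPM (log2 fold change -0.49, SE 0.062, adjusted p = 0.0001). In both, the 4 TAC mice lay in a narrow band below the sham mice. The deviations of Hadha and Hadhb from their group means had a Pearson r of 0.92 over the 16 mice, against a median of 0.80 over the 105 pairs among the 15 oxidation genes and 0.44 over all 496 pairs of the 32 genes, which are descriptions since all genes of a mouse share one library. Of the 50-base stretches of Hadhb, 19.7% also occur elsewhere, mostly in Gm13910.

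For shorter chains, Acaa2, the matrix 3-ketoacyl-CoA thiolase, had the largest fall of the oxidation genes, from 430.4, 471, 454 and 430.5 CPM in sham to 274, 227, 285 and 258 CPM in TAC mice (log2 fold change -0.77, SE 0.081, adjusted p = 2.8e-05). Hadh, the medium- and short-chain hydroxyacyl-CoA dehydrogenase, was at 368, 401, 419 and 363 CPM and 266, 246, 317 and 275 CPM (log2 fold change -0.49, SE 0.09, adjusted p = 0.0017). Echs1, the short-chain enoyl-CoA hydratase, was at 201, 198, 204 and 196 CPM and 152, 143, 168 and 174 CPM (log2 fold change -0.33, SE 0.066, adjusted p = 0.0031). None of these 3 genes had overlapping groups.

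The auxiliary enzymes for unsaturated fatty acids fell in the same way, Decr1, the 2,4-dienoyl-CoA reductase, from 309, 311, 332 and 287 CPM to 218, 192, 237 and 203 CPM (log2 fold change -0.54, SE 0.073, adjusted p = 0.00018). Eci1, an enoyl-CoA isomerase, went from 137, 145, 151 and 135 CPM to 102, 86.1, 105 and 97.0 CPM (log2 fold change -0.54, SE 0.08, adjusted p = 0.00036). Eci2, a second isomerase, fell less and its groups overlapped (log2 fold change -0.18, SE 0.052, adjusted p = 0.027). Electron transfer closed the sequence. Etfb, the beta subunit of ETF, was at 227, 239, 251 and 241 CPM in sham mice and 162, 150.2, 174 and 157 CPM in TAC mice (log2 fold change -0.58, SE 0.062, adjusted p = 3.6e-05), Etfa, the alpha subunit, had a log2 fold change of -0.45 (SE 0.061, adjusted p = 0.00019), and Etfdh, the ubiquinone oxidoreductase, one of -0.40 (SE 0.054, adjusted p = 0.00019). The Etfdh sham mice lay within 526 to 532 CPM and the TAC mice within 393 to 418 CPM. Etfb shares 43.8% of its 50-base stretches with the overlapping model Gm45233.

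Around the cycle the picture was mixed. Acot1 and Acot2, thioesterases that cleave acyl-CoA in the cytosol and the mitochondrial matrix and lie side by side on chromosome 12, had log2 fold changes of -0.69 (SE 0.13, adjusted p = 0.0022) and -0.35 (SE 0.10, adjusted p = 0.026), although 24.5% of the stretches of Acot2 occur in Acot1 and reads may be split between them. Acot13 was not called (log2 fold change -0.074, SE 0.076, adjusted p = 0.57). Pnpla2, the triglyceride lipase of the lipid droplet, was lower (log2 fold change -0.29, SE 0.079, adjusted p = 0.019), whereas Plin5, which coats droplets beside mitochondria, was at 48.1, 40.2, 42.7 and 39.8 CPM in sham and 45.2, 40.9, 41.6 and 44.2 CPM in TAC mice (log2 fold change 0.008, SE 0.076, adjusted p = 0.96). Acacb, which makes malonyl-CoA at the outer mitochondrial membrane, and Mlycd, which degrades it, fell by nearly the same amount, with log2 fold changes of -0.33 (SE 0.067, adjusted p = 0.0036) and -0.32 (SE 0.074, adjusted p = 0.0078). Ucp3, the mitochondrial uncoupling protein 3, varied widely between mice, from 12.3 to 28.7 CPM over both groups, and was not called (log2 fold change -0.29, SE 0.32, adjusted p = 0.6).

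The second comparison asked the same of hearts given the Cardinal vector. After TAC 12 of the 32 genes were lower and 1 was higher in AAV9-Cardinal hearts, against 3.38% lower and 3.1% higher of all genes tested, with a median log2 fold change of -0.21 over the 32 genes and -0.00047 over all genes. Of the 15 oxidation genes, 6 were lower, namely Hadha, Hadhb, Acaa2, Eci1, Decr1 and Etfb, and the median of the 15 was -0.20. Among the other 17 genes Slc27a1, Acsl1, Cpt2, Acot1, Acot2 and Mlycd were lower, and the median was -0.22. Every AAV9-Cardinal TAC mouse lay below every AAV9-Cardinal sham mouse for 20 of the 32 genes, against 7.21% of all genes tested. The number of called genes, 13, moved with single mice. It was 5 without AAV9-Cardinal TAC replicate 5, 6 without AAV9-Cardinal sham replicate 2 or replicate 4, 7 without AAV9-Cardinal sham replicate 1 and 8 without AAV9-Cardinal TAC replicate 1, and 17 with DESeq2. Over all genes the same fits called, in this order, 384, 395, 651, 581, 1436 and 1369. When each of the 16 mice was left out in turn, the calls of Slc27a1, Hadha, Acaa2, Acot1 and Mlycd held in every fit, while those of Decr1, Acsl1 and Eci1 held in 5, 3 and 1.

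Hadha was at 1287, 1336, 1334 and 1432 CPM in AAV9-Cardinal sham mice and 953, 1164, 1145 and 1157 CPM in AAV9-Cardinal TAC mice (log2 fold change -0.29, SE 0.059, adjusted p = 0.012). Replicate 1 was the lowest of the TAC mice, and the groups did not overlap with or without it. Hadhb, at 960.2, 991, 1014 and 1026 CPM and 716, 903, 863 and 874 CPM, behaved in the same way (log2 fold change -0.25, SE 0.062, adjusted p = 0.029). Acaa2 was again the oxidation gene with the largest fall, from 428, 438, 438 and 494 CPM to 288, 356, 344 and 369 CPM (log2 fold change -0.40, SE 0.08, adjusted p = 0.01). Etfb went from 231, 252, 228 and 239 CPM to 177, 215, 200.3 and 212 CPM (log2 fold change -0.24, SE 0.062, adjusted p = 0.034). In the first step no dehydrogenase was called, and Acadm was at 905, 918, 949.8 and 972 CPM in sham and 716, 890.3, 854 and 841 CPM in TAC mice (log2 fold change -0.18, SE 0.064, adjusted p = 0.11), Acadvl at 589, 589.9, 595 and 623 CPM and 485, 562, 563 and 596 CPM (log2 fold change -0.12, SE 0.063, adjusted p = 0.29). The groups of Acadm did not overlap and those of Acadvl did.

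Outside the cycle, uptake and thioesterase genes were among those called. Slc27a1 was at 115, 117, 98.5 and 112 CPM in AAV9-Cardinal sham and 68.3, 63.1, 62.1 and 74.4 CPM in AAV9-Cardinal TAC mice (log2 fold change -0.73, SE 0.12, adjusted p = 0.0044). Acot1 was at 11.1, 10.6, 11.6 and 14.3 CPM and 6.15, 6.58, 7.92 and 7.92 CPM (log2 fold change -0.74, SE 0.13, adjusted p = 0.0057), and Acot2 at 38.7, 36.1, 34.5 and 42.0 CPM and 25.3, 26.4, 27.0 and 31.7 CPM (log2 fold change -0.45, SE 0.10, adjusted p = 0.017). The groups of these 3 genes did not overlap. Mlycd had a log2 fold change of -0.38 (SE 0.074, adjusted p = 0.0092) and Cpt1a, which missed the threshold, one of -0.36 (SE 0.11, adjusted p = 0.061). Fabp4 was the gene that rose, from 352, 339.8, 315 and 299.7 CPM to 361, 388, 496 and 469.5 CPM (log2 fold change 0.39, SE 0.11, adjusted p = 0.044), and its call was kept in 6 of the 16 fits that left out 1 mouse. Lpl and Cd36, both lower after TAC in AAV9-GFP hearts, had log2 fold changes of -0.08 (SE 0.089, adjusted p = 0.67) and -0.039 (SE 0.07, adjusted p = 0.82). Fabp3, Plin5 and Acot13 lay within 0.036 of 0 on the log2 scale. The sum of the cardiomyocyte markers ran from 53030 to 58498 CPM in AAV9-Cardinal sham and 51998 to 57430 CPM in AAV9-Cardinal TAC mice, and that of the fibroblast markers from 515 to 573 CPM and from 554 to 1013 CPM, the highest in replicate 1.

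**Figure D2:**
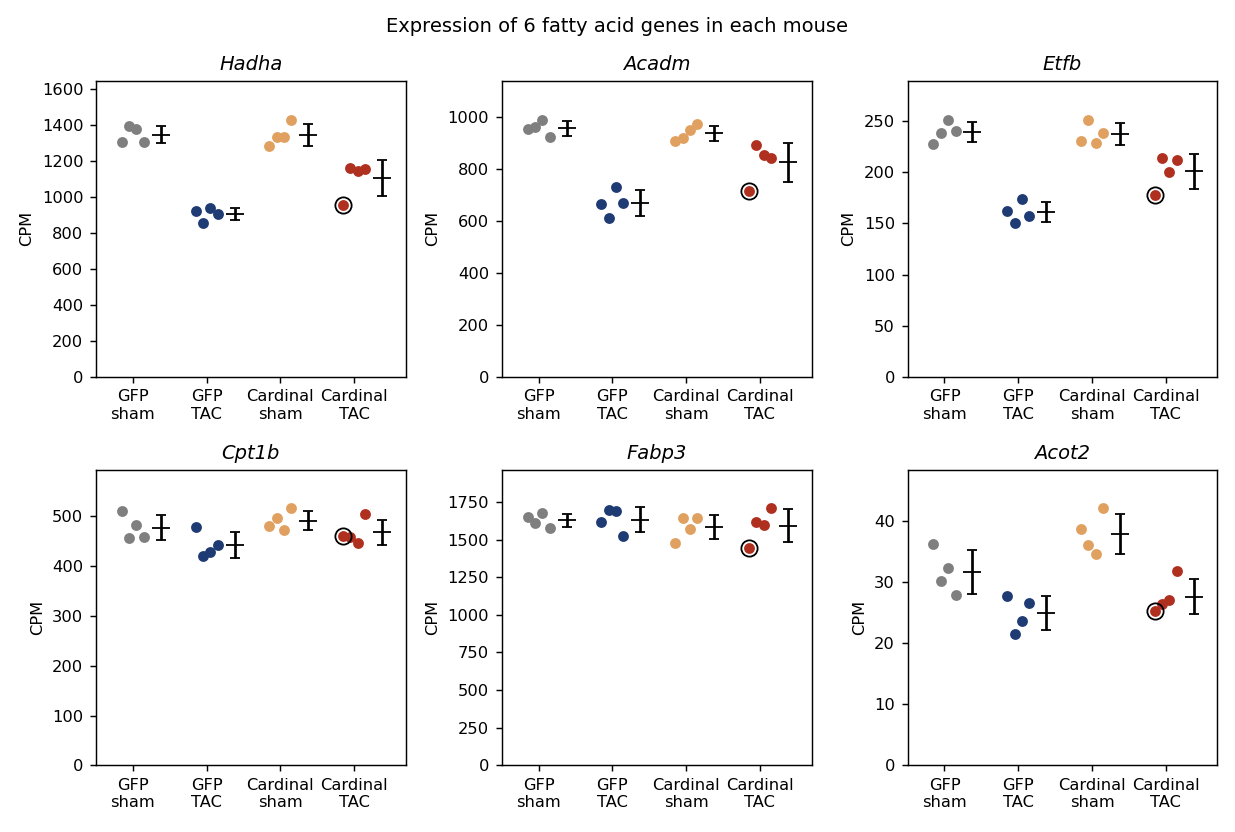
CPM (y axis, from 0) of 6 genes in every mouse (points) of the 4 groups (x axis), with the mean and SD beside them (n = 4) and AAV9-Cardinal TAC replicate 1 ringed. Hadha, Acadm and Etfb are lowest in AAV9-GFP TAC, with AAV9-Cardinal TAC means between AAV9-GFP TAC and the sham groups, Cpt1b and Fabp3 lie in overlapping ranges in all groups, and Acot2 is at 21.6 to 31.7 CPM in both TAC groups.

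The test of whether the response to TAC differed between the vectors called none of the 32 genes, with 0.0119% of all genes called. With the edgeR test 13 of the 32 genes had an unadjusted p under 0.05, all with the less negative change in AAV9-Cardinal hearts, which was the case for 5.01% of all genes. Of these 13 genes 12 were among the 15 oxidation genes and the other was Lpl. DESeq2 called 5 of the 32 (Acadvl, Acadm, Hadha, Acaa2 and Etfb) and 137 of all 16857 genes. The difference was 0.34 for Etfb (SE 0.087, unadjusted p = 0.0015, adjusted p = 0.3 with edgeR), 0.33 for Acadm (SE 0.09, adjusted p = 0.3), 0.37 for Acaa2 (SE 0.11, adjusted p = 0.32) and 0.28 for Hadha (SE 0.084, adjusted p = 0.31) on the log2 scale. The thioesterases Acot1 and Acot2 had differences of -0.047 (SE 0.19) and -0.11 (SE 0.14), and Mlycd one of -0.061 (SE 0.10). The median difference was 0.26 over the 15 oxidation genes, 0.039 over the other 17 and -0.00071 over all genes. Without AAV9-Cardinal TAC replicate 1, edgeR called 4 genes, Acadm, Hadha, Hadhb and Etfb, with 79 of all 17075 genes called.

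Set side by side within pressure-overloaded hearts, AAV9-Cardinal hearts showed higher values than AAV9-GFP hearts across the oxidation genes, without a single call. With edgeR none of the 32 genes passed the adjusted threshold, and 0.101% of all genes did. At an unadjusted p under 0.05 there were 18 of 32, all higher in AAV9-Cardinal TAC, against 7.58% of all genes, and DESeq2 called 12 (Cd36, Acadvl, Acadl, Acadm, Hadha, Hadhb, Acaa2, Decr1, Etfa, Etfb, Etfdh and Acacb), all higher. Of all 16857 genes DESeq2 called 428, of which 291 were higher. The median log2 difference was 0.22 over the 32 genes, 0.25 over the 15 oxidation genes and -0.0065 over all genes. Without AAV9-Cardinal TAC replicate 1 the edgeR test called 13 genes, 12 of them oxidation genes, with 535 of all 17075 genes called. Without AAV9-GFP TAC replicate 4 it called 3, with 79 of all 17047 genes called.

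Etfb came nearest to the threshold, at 162, 150.2, 174 and 157 CPM in AAV9-GFP TAC and 177, 215, 200.3 and 212 CPM in AAV9-Cardinal TAC mice, with the lowest AAV9-Cardinal mouse just above the highest AAV9-GFP mouse (log2 difference 0.32, SE 0.062, adjusted p = 0.0551). Acaa2 had the largest difference among genes with non-overlapping groups (log2 difference 0.38, SE 0.081, adjusted p = 0.064), and the other 2 genes whose groups did not overlap were Hadha (log2 difference 0.28, SE 0.059, adjusted p = 0.061) and Etfdh (log2 difference 0.23, SE 0.054, adjusted p = 0.089). Such separation was seen in 3.58% of all genes tested. For Acadm, AAV9-Cardinal TAC replicate 1, at 716 CPM, lay below 1 AAV9-GFP TAC mouse, at 730.4 CPM, and the other 3 AAV9-Cardinal mice lay between 841 and 890.3 CPM (log2 difference 0.30, SE 0.064, adjusted p = 0.062). Cd36 was at 1004, 1036, 1009 and 1082 CPM in AAV9-GFP TAC and 1031, 1288, 1273 and 1295 CPM in AAV9-Cardinal TAC mice, again with replicate 1 alone inside the AAV9-GFP range (log2 difference 0.24, SE 0.07, adjusted p = 0.13). At the other end Fabp3 (log2 difference -0.036, SE 0.054, adjusted p = 0.82), Cpt1a (log2 difference 0.028, SE 0.11, adjusted p = 0.94) and Acot13 (log2 difference 0.04, SE 0.076, adjusted p = 0.86) had differences smaller than their errors.

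**Figure D3:**
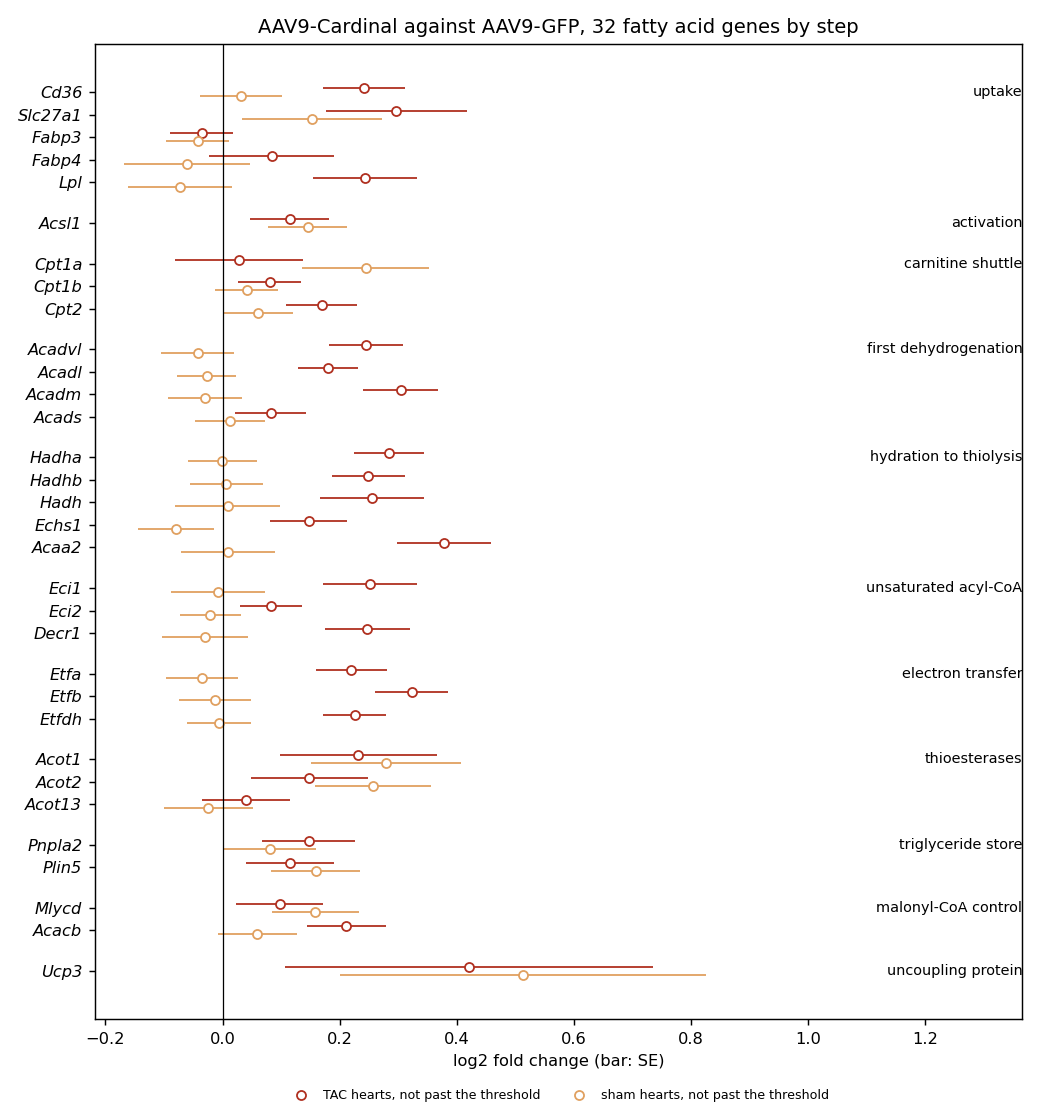
Log2 difference of AAV9-Cardinal from AAV9-GFP (x axis, bars are SE, open symbols because no adjusted p was under 0.05) for the 32 genes (y axis, by step), in TAC hearts (red) and sham hearts (orange), n = 4 mice a group. From Acadvl to Etfdh the red symbols lie at 0.082 to 0.38 and the orange symbols near 0. For Cpt1a, Acot1, Acot2, Mlycd and Ucp3 both colours lie right of 0, as they do for other genes such as Slc27a1, Acsl1 and Plin5.

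Sham hearts gave the baseline of that contrast. None of the 32 genes was called between AAV9-Cardinal and AAV9-GFP sham hearts with edgeR or with DESeq2, and 0.0119% of all genes were called with edgeR. At an unadjusted p under 0.05 there were 5, against 2.59% of all genes, and all 5 were higher in AAV9-Cardinal sham hearts, namely Acsl1 (log2 difference 0.15, SE 0.067, adjusted p = 1), Cpt1a (log2 difference 0.24, SE 0.11, adjusted p = 1), Acot1 (log2 difference 0.28, SE 0.13, adjusted p = 1), Acot2 (log2 difference 0.26, SE 0.10, adjusted p = 1) and Mlycd (log2 difference 0.16, SE 0.074, adjusted p = 1). None of the 15 oxidation genes was among them, and their median difference was -0.013. No gene of the 32 had an unadjusted p under 0.05 without AAV9-GFP sham replicate 4 or without AAV9-Cardinal sham replicate 4, and leaving out others gave 2 to 6. Of the 5 genes Acot2 was at 36.3, 30.1, 32.3 and 27.8 CPM in AAV9-GFP sham and 38.7, 36.1, 34.5 and 42.0 CPM in AAV9-Cardinal sham mice, and the groups overlapped.

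Mouse by mouse, the mean log2 difference of the 15 oxidation genes from the AAV9-GFP sham average was -0.45, -0.57, -0.35 and -0.45 in the AAV9-GFP TAC mice. In the AAV9-Cardinal TAC mice it was -0.41 in replicate 1 and -0.15, -0.19 and -0.14 in the other 3, and in the AAV9-Cardinal sham mice it ran from -0.070 to 0.050. AAV9-Cardinal TAC replicate 1 was therefore inside the range of the AAV9-GFP TAC mice, and the other 3 were above all of them. The same mouse had the highest Cardinal level, at 93.9 CPM, and a fibroblast marker sum of 1013 CPM, against 554, 602 and 602 CPM in the other 3 and 946 to 1225 CPM in the AAV9-GFP TAC mice. Its cardiomyocyte marker sum, at 51998 CPM, was the lowest of its group and lay among the AAV9-GFP TAC mice. The part of these measures in the level of the oxidation genes was not tested.

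**Figure D4:**
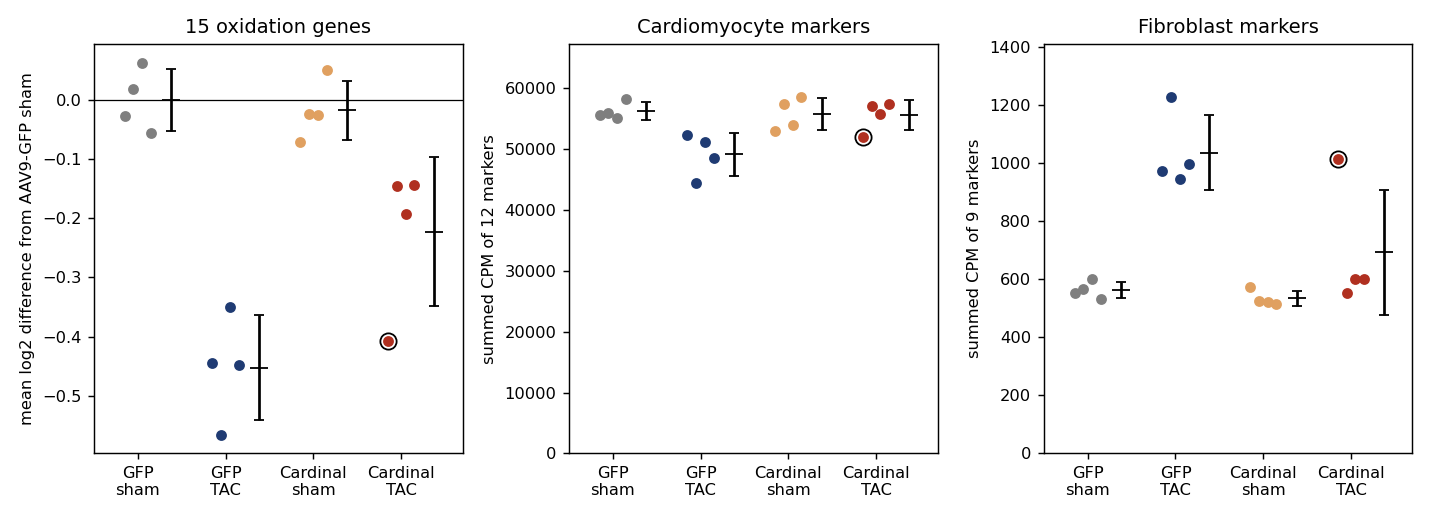
Mean log2 difference of the 15 oxidation genes from the AAV9-GFP sham average (left), summed CPM of 12 cardiomyocyte markers (middle) and of 9 fibroblast markers (right) in each mouse (points) by group (x axis), with mean and SD (n = 4). The ringed AAV9-Cardinal TAC replicate 1 lies with the AAV9-GFP TAC mice in all 3 panels, at -0.41, 51998 CPM and 1013 CPM.

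Across the 32 genes the log2 fold changes after TAC in the 2 vector arms, which came from separate mice, had a Pearson r of 0.77 and a Spearman rho of 0.68, a description across genes, which are not independent. The change was less negative or more positive in AAV9-Cardinal hearts for 25 of the 32 genes. The 7 others were Acsl1, Cpt1a, Acot1, Acot2, Plin5, Mlycd and Ucp3.

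Other genes of fatty acid metabolism, listed by function beside the 32, numbered 116, of which 108 were tested. In AAV9-GFP hearts 32 of the 108 were lower and 5 higher after TAC, against 8.92% lower and 8.49% higher of all genes tested, with a median of -0.13. The mitochondrial enzymes outside the 32 genes, which handle among others branched-chain and odd-chain intermediates, held 12 of the lower genes out of 16 tested. Among them were Pcca, a subunit of propionyl-CoA carboxylase (log2 fold change -0.45, SE 0.058, adjusted p = 0.00012), and Mut, methylmalonyl-CoA mutase (log2 fold change -0.45, SE 0.062, adjusted p = 0.00019). Crat, carnitine acetyltransferase, was lower too (log2 fold change -0.44, SE 0.053, adjusted p = 8.3e-05). Higher were Scd1, the stearoyl-CoA desaturase (log2 fold change 0.58, SE 0.11, adjusted p = 0.0023), the fatty acid-binding protein Fabp5 (log2 fold change 0.44, SE 0.11, adjusted p = 0.011) and the thioesterase Acot9 (log2 fold change 0.36, SE 0.079, adjusted p = 0.0061). Of 17 peroxisomal genes 3 were lower and none was higher, against the same 8.92% lower and 8.49% higher, namely Scp2, Abcd3 and Phyh, named after their values were seen.

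In AAV9-Cardinal hearts 14 of the 108 were lower and 3 higher, against 3.38% lower and 3.1% higher of all genes tested, with a median of -0.10. Among the lower genes were Gpam, which starts glycerolipid synthesis (log2 fold change -0.42, SE 0.076, adjusted p = 0.0062), and Echdc3 (log2 fold change -0.37, SE 0.068, adjusted p = 0.0065). Scd1 (log2 fold change 0.50, SE 0.11, adjusted p = 0.018), the thioesterase Them4 (log2 fold change 0.35, SE 0.087, adjusted p = 0.028) and Acot9 (log2 fold change 0.28, SE 0.08, adjusted p = 0.0498) were higher. With edgeR none of the 108 was called between the vectors in TAC hearts or in sham hearts. In TAC hearts 27 had an unadjusted p under 0.05, of which 23 were higher in AAV9-Cardinal hearts, against 7.58% higher of all genes, and in sham hearts 5 did, all higher, against 2.59% of all genes in either direction.

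Of 18 regulators of the pathway, 4 were lower after TAC in AAV9-GFP hearts and 3 in AAV9-Cardinal hearts, against 8.92% and 3.38% lower of all genes tested, none was higher in either, and the genes that follow were picked after their values were seen. Ppara, which encodes PPARα, was at 32.1 to 36.6 CPM in AAV9-GFP sham and 16.1 to 27.2 CPM in AAV9-GFP TAC mice, without overlap (log2 fold change -0.57, SE 0.13, adjusted p = 0.0064). In AAV9-Cardinal hearts Ppara ran from 33.0 to 41.9 CPM in sham and from 28.9 to 32.5 CPM in TAC mice, also without overlap. It was not called there (log2 fold change -0.29, SE 0.13, adjusted p = 0.2). Rxra, which encodes a partner of PPARα, was lower in AAV9-GFP hearts (log2 fold change -0.32, SE 0.068, adjusted p = 0.0041) and in AAV9-Cardinal hearts (log2 fold change -0.28, SE 0.068, adjusted p = 0.025). Prkag1, a regulatory subunit of AMP-activated protein kinase, was also lower in both (log2 fold change -0.27, SE 0.047, adjusted p = 0.0011 and log2 fold change -0.18, SE 0.047, adjusted p = 0.035). Rxrg was the other regulator called in AAV9-GFP hearts (log2 fold change -0.24, SE 0.068, adjusted p = 0.023) and Prkab1 the other in AAV9-Cardinal hearts (log2 fold change -0.73, SE 0.17, adjusted p = 0.019). Esrra, which encodes ERRα, was called in neither (log2 fold change -0.14, SE 0.069, adjusted p = 0.19 and log2 fold change -0.0094, SE 0.069, adjusted p = 0.96).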

How the data were processed

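RNA was taken from the heart apex of 16 mice, 4 a group, and poly(A) libraries were sequenced as 50-base single-end reads. The deposited values are raw counts per gene, made by the authors from reads aligned to GRCm38. The submitters' processing notes name FastQC, HISAT2 2.1.0 and edgeR 3.26.1, while the counting program, annotation, strand setting and treatment of multiply mapped reads are not given in the sources used here. Groups came from the sample labels, and 0 columns belonged to no sample. Of 55573 gene identifiers 55394 were named from GENCODE M21.

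Tests were run with edgeR 4.0.16 under R 4.3.3. Genes with low counts were removed by filterByExpr, which left 16857, libraries were scaled by TMM, and one quasi-likelihood model with a mean for each group was fitted to all 16 mice. Contrasts were tested 2-sided by glmQLFTest with Benjamini-Hochberg adjustment, and the standard error is the log2 fold change divided by the square root of the F statistic. Total counts of 16441997 to 21904589 and a common biological coefficient of variation of 0.128 set the precision. Exact permutation of 4 against 4 mice has 70 labelings and cannot give p below 0.0286. The model was tested on simulated counts with known fold changes.

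All 32 genes are named in the text. From the wider list the 3 called genes with the lowest adjusted p in each direction are named, except 1 that is not reported here, and further ones are marked as chosen after their values were seen. The 32 genes and all lists were chosen with earlier results of these data known. Shared sequence was measured as the share of 50-base stretches of a gene's transcripts found in another gene's transcripts. Promoter windows came from RefSeq on GRCm38.p6 and were searched on both strands, and 26 of the 32 genes matched. Alternatives were DESeq2 1.42.0, RLE scaling, other filters on low counts, removal of mitochondrially encoded genes, an offset for GC content, a replicate block, only the mice compared, and leaving out each mouse in turn.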

Additional observations from a re-analysis of the deposited data

Results flagged for a closer look

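In 8 cases 1 mouse lay far from the other 3 of its group by Dixon's criterion (gap over range above 0.829), where 128 groups of 4 were examined and chance alone would give about 1 in 20 groups, or 6.4. Of these, 4 concerned AAV9-Cardinal TAC replicate 1, the mouse with the highest Cardinal and fibroblast marker values of its group. It was low for Cd36, at 1031 CPM with the others at 1273 to 1295 CPM, and for Hadha, at 953 CPM with the others at 1145 to 1164 CPM. It was also low for Echs1, at 154 CPM with the others at 182 to 187 CPM, and for Etfa, at 280.3 CPM with the others at 331 to 341 CPM. AAV9-Cardinal sham replicate 4, the library with the fewest counts, was high for Acadvl, at 623 CPM with the others at 589 to 595 CPM, and for Acaa2, at 494 CPM with the others at 428 to 438 CPM. Pnpla2 was low in AAV9-GFP sham replicate 4, at 215 CPM with the others at 237 to 241 CPM. Acacb was low in AAV9-GFP TAC replicate 3, at 159.9 CPM with the others at 193 to 198 CPM.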

How the results depend on the processing

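The 25 genes called lower after TAC in AAV9-GFP hearts stayed 20 to 25 when each mouse was left out in turn and 22 to 25 under the other alternatives. Over all genes the 2934 calls of that comparison became 1962 to 3072 without single mice and 2091 to 2946 under the other alternatives. The count after TAC in AAV9-Cardinal hearts, 13 of 32, was less settled. It was 6 with no filter on low counts, 7 in a fit of only the mice compared and 5 to 13 without single mice, the lowest without AAV9-Cardinal TAC replicate 5. Over all genes that comparison gave 1092 calls, 615 with no filter and 384 to 1436 without single mice. Between the vectors in TAC hearts the 0 calls among the 32 became 12 with DESeq2, 1 (Etfb) with the filter at 1 CPM in 4 mice, 1 (Etfb) with mitochondrially encoded genes left out, 1 (Etfb) with the GC offset and 0 to 13 without single mice, the highest without AAV9-Cardinal TAC replicate 1. Over all genes the 17 calls became 428 with DESeq2, 3 with no filter, 35 with the stricter filter, 30 without mitochondrially encoded genes, 3 with only the mice compared and 0 to 535 without single mice. In sham hearts the 2 calls over all genes became 4 with DESeq2 and 1 to 3 without single mice. For the difference in response DESeq2 called 5 of the 32 and 137 of all genes, and leaving out single mice gave 0 to 4 and 2 to 79. The cause of these shifts was not tested, and a fit of only the mice compared was not possible for the difference in response.

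Some labels share replicate numbers, but mice with the same number did not deviate together throughout (r of 0.149, -0.00015 and -0.016 between AAV9-GFP sham and TAC, 0.130 and 0.030 between AAV9-Cardinal sham and TAC, 0.211 and 0.043 between the TAC groups, and 0.103, -0.040, 0.066 and 0.090 between the sham groups). The mice numbered 1 were above 0.1 in all 4 pairs of groups compared and the other mice of equal number were not. Mice with different numbers had r of -0.193 to 0.218 in the same pairs of groups. The numbers were not taken as pairs, and whether the mice numbered 1 shared a batch was not tested. With a replicate block the calls among the 32 were 22 after TAC in AAV9-GFP hearts and 0 in AAV9-Cardinal hearts. Numbers 5 and 6 occur only in AAV9-Cardinal TAC and number 7 only in AAV9-GFP TAC, so each of these mice was fitted by a term of its own. In this fit AAV9-Cardinal TAC thus rested on replicates 1 and 4, and AAV9-GFP TAC on replicates 1, 3 and 4. The block therefore cannot tell an effect of pairing from the loss of these mice. Over all genes the replicate block gave 2091 calls after TAC in AAV9-GFP hearts and 31 in AAV9-Cardinal hearts. It gave 0 between vectors in TAC hearts, 1 in sham hearts and 1 for the difference in response. At an unadjusted p under 0.05 the replicate block left 6 of the 32 genes between vectors in TAC hearts in place of 18. For the difference in response it left 2 in place of 13. Over all 16857 genes it left 1681 in place of 2528 between vectors in TAC hearts. For the difference in response it left 1481 of all genes in place of 1722.

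Among the log2 fold changes of the 32 genes after TAC, and of those with an unadjusted p under 0.05 between vectors, signs reversed for values near 0 that were not called. After TAC in AAV9-GFP hearts Fabp3 was at -0.0045 with no filter, -0.017 with the GC offset and -0.014 to 0.040 without single mice, and Plin5 at -0.020 with the replicate block, -0.053 with the GC offset and -0.024 to 0.070 without single mice. In AAV9-Cardinal hearts the replicate block gave -0.030 for Fabp3 and 0.011 for Acot13. Without single mice the ranges there were -0.078 to 0.037 for Cd36, -0.023 to 0.056 for Fabp3, -0.046 to 0.014 for Acadl, -0.063 to 0.049 for Acot13 and -0.099 to 0.024 for Plin5. Near-zero medians moved as well: between vectors in sham hearts the median over the 32 genes was 0.0078 and became -0.011 without AAV9-GFP sham replicate 1, and that over the 15 oxidation genes was -0.013 and became 0.0050 without AAV9-GFP sham replicate 3.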
